A study of Mus musculus with 8 samples.

Results

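Epithelial identity genes are described here through the histone mark H3K27me3 in mouse 3T3 fibroblasts, an immortalised line derived from embryonic mesenchyme. The set holds 33 named genes of 21900 protein-coding genes in the RefSeq annotation. They are junction proteins, keratins, epithelial transcription factors, splicing regulators, a protease and a basement membrane laminin. A region of the authors' deposited table was taken as belonging to a gene where it overlapped the gene span extended by 2 kb on both sides, on the build GRCm38. By that rule 22 of the 33 genes held 347 of the 265968 regions in the table, with no region shared between any pair of them, and 11 genes held none.

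The study immunoprecipitated H3K27me3 from 3T3 cells of the genotypes Control and NNMT overexpression, with 3 libraries and 1 input library per construct. NNMT methylates nicotinamide with S-adenosylmethionine, which is also the methyl donor of histone methyltransferases. All groups shared methionine-free DMEM brought to 10 µM methionine, dialyzed serum and 48 h of culture, and the antibody was clone C36B11. The sources used here do not name the promoter that drives the construct, nor say whether a line is a clone or a pool.

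H3K27me3 is deposited by Polycomb repressive complex 2 and marks genes that a cell keeps silent, among them regulators and structural genes of other lineages. Epithelial cells hold together through E-cadherin junctions, tight junctions and keratin filaments, and a small group of transcription factors (the Grainyhead-like, OVOL and ETS families, p63 and KLF5) keeps that state. Fibroblasts express the opposing repressors of the SNAI and ZEB families, which bind the E-box CAGGTG in epithelial promoters.

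Each region in the authors' deposited table carries 3 values for a first set of libraries and 3 for a second, called set 1 and set 2 here. No header or column name says which set is NNMT, so no direction is tied to NNMT, and which value belongs to which replicate is not given either. Libraries with no known group get no test. No mean or SD is printed for them, except levels per kb, which are means over the libraries of a set. Values are given per library, and a ratio has as its error the lowest and highest ratio among the 9 possible pairings of a library from each set. Where values are set against each other with no set named, those of set 1 come first. A region or gene is called separated where all 3 values of a set lie above all 3 of the other. The table lists regions selected for a difference (highest listed p 0.1), so separation is a description and not independent evidence of a difference. A gene without a region may still carry the mark equally in both sets or not at all. Nothing says whether the inputs were used to correct the values, so DNA copy number and the mark cannot be told apart. Sums over all listed regions were 39899303 to 41971892 per library in set 1 and 35565866 to 36958436 in set 2, a shift of 0.19 on the log2 scale between the sets. The table does not hold library totals, and the sequencing depth behind each value is therefore unknown.

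The promoters of these genes are shown first because most of those with a matched window hold the E-box CAGGTG. The list was not built from promoter sequence. As stated above, though, this E-box is one bound in epithelial promoters, so the 2 are not unrelated. RefSeq promoter windows of GRCm38.p6, from 250 bases before to 50 after the gene start, were matched for 18 of the 33 genes, with 22 windows in all. The letters CAGGTG on either strand, read as CACCTG on the opposite strand, occurred in a window of 13 of the 18 genes (72.2%), against 22.1% of 17492 protein-coding genes with a listed start. Counted per window, 15 of 22 held a match, against 19.7% of all 21263 windows. The match was present in 7 of the 11 matched genes that held a region and in 6 of the 7 that held none. Among all protein-coding genes with a start it was present in 30.1% of those with a region and 18.6% of those without. Below, 6 windows are printed 5′ to 3′ on the strand of the gene, with each match in capitals. Epcam, Grhl3 and Elf5 held regions higher in set 1, Krt5 and Prom2 had their start inside a region, and Rab25 held no region.
Epcam (chr17:87635729-87636028, plus strand): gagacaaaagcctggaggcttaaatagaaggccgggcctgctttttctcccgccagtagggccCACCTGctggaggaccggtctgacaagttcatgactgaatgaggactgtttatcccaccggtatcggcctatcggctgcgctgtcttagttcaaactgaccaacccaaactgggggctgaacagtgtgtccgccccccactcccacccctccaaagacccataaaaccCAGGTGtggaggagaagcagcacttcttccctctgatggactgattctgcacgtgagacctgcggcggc
Grhl3 (chr4:135573583-135573882, minus strand): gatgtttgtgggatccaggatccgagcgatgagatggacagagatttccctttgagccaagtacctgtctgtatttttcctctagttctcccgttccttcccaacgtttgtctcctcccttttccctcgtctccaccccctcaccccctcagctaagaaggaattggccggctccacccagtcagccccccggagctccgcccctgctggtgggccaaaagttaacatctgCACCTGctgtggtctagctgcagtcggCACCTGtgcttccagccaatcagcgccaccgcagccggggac
Elf5 (chr2:103411848-103412147, plus strand): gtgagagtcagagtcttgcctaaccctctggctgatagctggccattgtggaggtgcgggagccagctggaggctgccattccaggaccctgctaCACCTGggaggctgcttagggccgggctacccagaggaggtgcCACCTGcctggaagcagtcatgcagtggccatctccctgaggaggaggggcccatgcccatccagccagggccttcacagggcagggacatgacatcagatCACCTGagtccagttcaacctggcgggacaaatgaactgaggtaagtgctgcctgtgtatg
Krt5 (chr15:101712856-101713155, minus strand): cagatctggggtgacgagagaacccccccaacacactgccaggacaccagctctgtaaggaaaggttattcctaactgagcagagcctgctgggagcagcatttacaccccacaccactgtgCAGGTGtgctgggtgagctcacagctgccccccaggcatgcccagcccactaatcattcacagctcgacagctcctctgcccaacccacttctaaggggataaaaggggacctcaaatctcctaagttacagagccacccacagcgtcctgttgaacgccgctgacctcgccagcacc
Prom2 (chr2:127541368-127541667, minus strand): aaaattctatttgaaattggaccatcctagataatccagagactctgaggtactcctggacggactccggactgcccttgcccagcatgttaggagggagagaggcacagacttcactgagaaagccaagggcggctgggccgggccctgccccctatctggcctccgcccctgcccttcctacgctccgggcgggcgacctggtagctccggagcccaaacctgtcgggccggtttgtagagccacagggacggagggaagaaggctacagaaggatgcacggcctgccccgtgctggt
Rab25 (chr3:88548230-88548529, minus strand): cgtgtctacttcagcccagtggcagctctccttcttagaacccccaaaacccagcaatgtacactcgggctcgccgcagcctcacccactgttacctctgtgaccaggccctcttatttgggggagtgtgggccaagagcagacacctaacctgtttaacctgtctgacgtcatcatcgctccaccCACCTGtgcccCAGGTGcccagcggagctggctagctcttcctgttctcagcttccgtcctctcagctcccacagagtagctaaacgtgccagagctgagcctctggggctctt

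The Elf5 window (the first of 2 starts) held 3 matches, and the windows of Epcam, Grhl3 and Rab25 held 2 each, as did those of Cldn4 and of the second start of Cldn7. In Epcam the nearer match began 19 bases before the start, and in Grhl3 19 bases before and 8 bases after it. In Rab25 the matches began 64 and 53 bases before the start. The Krt5 window held 1 match, 128 bases before the start, and the Prom2 window none. No match was found in the windows of Krt14, Krt20, Grhl1 and Ovol2. The GRHL motif AACCGGTT, which reads the same on both strands and does not contain CAGGTG, was in 0 of the 22 windows and in 0.179% of all windows. These matches are letters in a window and were not tested as binding sites.

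Regions reached the start itself in 3 of the 18 genes with a listed start (16.7%), against 7.31% of protein-coding genes: Krt5, Krt20 and Prom2. The closest regions otherwise lay 18 bp from the second start of Elf5, 279 bp from the start of Epcam, 689 bp from that of Ovol2, 729 bp from the first start of Cldn7 and 982 bp from the start of Grhl3. At Ovol2, on the minus strand, the gene span runs past the listed start, and that region overlapped the upper end of the span. A region within 1 kb of a start was present at 8 of the 18 genes, against 16.8% of protein-coding genes with a listed start. The observed over expected ratio of CpG dinucleotides was 0.25 in the Krt5 window, 0.32 in Krt20 and 0.53 in Prom2. Over all windows the median ratio was 0.236 where the start lay in a region and 0.604 where it did not, and over the 22 windows of these genes it was 0.448.

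Epithelial identity genes carried listed regions in 22 of 33 cases (66.7%), against 31.2% of all protein-coding genes. Of the 33, 21 carried at least 1 region higher in set 1 (63.6%, against 26.5%), 12 carried at least 1 higher in set 2 (36.4%, against 18.0%), and 11 carried both kinds. The median span was 14.5 kb for the 33 genes and 17.1 kb for all protein-coding genes. Summed over their regions, 17 of the 22 were higher in set 1 (77.3%, against 69.3% of genes with regions) and 5 in set 2, namely Krt5, Cldn3, Esrp1, Grhl2 and Ovol2. With the sets rescaled to equal sums the count stayed at 17 of 22, against 61.1% of genes with regions. The share higher in set 1 is near the background. The median log2 ratio of set 1 over set 2 per gene was 0.44, and 0.37 over all genes with regions.

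Of the 347 regions, 245 were higher in set 1 (70.6%, against 59.5% of all listed regions) and 102 in set 2. Separation was found in 224 (64.6%, against 65.1%), of which 165 lay towards set 1 (47.6%, against 40.5%) and 59 towards set 2 (against 24.7%). Rescaling changed that split to 122 and 80, for which no rescaled share over all listed regions is available. The split of all 347 became 241 (69.5%, against 59.0% of all listed regions after rescaling) and 106. A ratio of at least 2-fold was reached by 71 regions in set 1 (20.5%, against 22.3%) and by 6 in set 2 (1.73%, against 12.9%). These regions were 50 to 7750 bp long, with a median of 500 bp against 450 bp over the table, and covered 302 kb together.

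**Figure D1:**
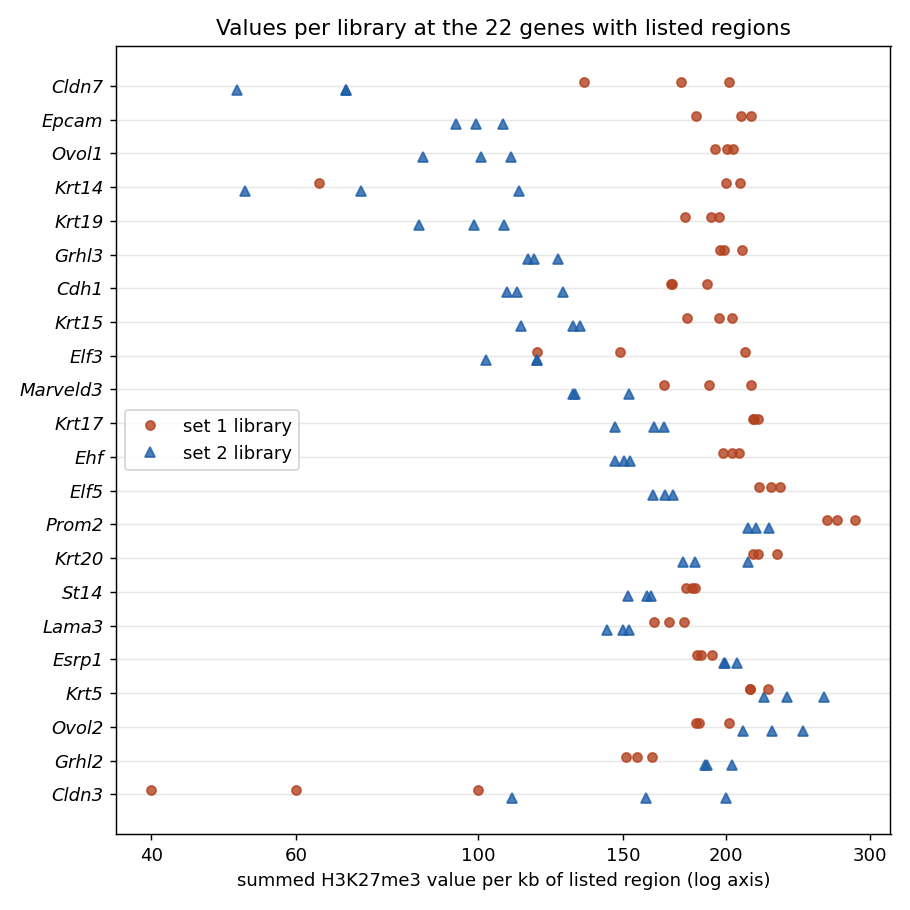
Summed H3K27me3 value per kb of listed region (log axis) in each library at the 22 genes with regions, ordered by ratio, where set 1 libraries are drawn as circles and set 2 libraries as triangles, 3 of each. Circles and triangles do not overlap at 19 genes, while at Krt5, Krt14 and Elf3 the values overlap or touch.

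Summed per gene, the sets were separated at 15 genes higher in set 1 and 4 higher in set 2. That is 68.2% and 18.2% of the 22, against 59.1% and 22.3% of all genes with regions. Among these genes, most of them higher in set 1, the level per length differed less between genes in set 1 than in set 2. The level is the summed value per kb as a mean over the 3 libraries of a set. Over the 18 genes with at least 1 kb of region, the set 1 level ran from 157 to 276 per kb (median 196, quartiles 188 and 214). In set 2 it ran from 97.0 to 241 per kb (median 154, quartiles 121 and 193). The 5553 protein-coding genes with as much region had quartiles of 168 and 226 per kb in set 1 and 125 and 198 in set 2. Which set had the closer quartiles changed with the direction. Protein-coding genes higher in set 1 had 183 and 237 in set 1 and 109 and 182 in set 2. Those higher in set 2 had 112 and 181 in set 1 and 176 and 219 in set 2. Of the 18 genes, 14 were higher in set 1. The 4 higher in set 2 had 180 and 198 in set 1 and 200 and 232 in set 2.

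Among the adhesion and junction genes with regions, Cdh1, Epcam, Cldn7 and Marveld3 were higher in set 1 in sum and Cldn3 was higher in set 2. Cdh1 encodes E-cadherin, the adhesion protein of epithelial adherens junctions (chromosome 8, 106603350 to 106670247). Its 9 regions, which covered 7.55% of the extended span, summed to 1017, 921 and 919 in set 1 against 679, 596 and 580 in set 2. The sets did not overlap, and set 1 was 1.54-fold higher (1.35 to 1.75 over pairs). The largest region (106649801 to 106651100) had 248, 235 and 238 in set 1 against 136, 113 and 186 in set 2. A 200 bp region nearby (106651801 to 106652000) had the largest ratio, 3.03-fold (1.76 to 5.13), with 41, 32 and 30 against 9, 17 and 8. All but 2 of the 9 regions lay between 46.5 kb and the upper end of the gene: the exceptions were a region in the flank at the lower end, with 52, 50 and 53 against 12, 20 and 40, and the only region higher in set 2, in the flank at the upper end, with 39, 36 and 22 against 62, 54 and 46.

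Epcam, the epithelial cell adhesion molecule, showed the same direction in all of its regions (chromosome 17, 87635979 to 87651127). All 17 were higher in set 1 and 16 were separated, a pattern of one-sided regions shared by 10 of the 22 genes for set 1 (45.5%, against 42.3% of genes with regions). The gene sums were 2058, 2118 and 1815 in set 1 against 926, 979 and 1055 in set 2, 2.02-fold higher in set 1 (1.72 to 2.29). Its largest region, 4400 bp within the gene (87643001 to 87647400), held 1026, 1141 and 943 against 566, 569 and 614. The largest ratio among regions with a summed value of at least 100 was 3.0-fold, past the upper end of the gene (87652051 to 87652350), with 47, 64 and 42 against 6, 36 and 9. No region lay from 279 bp before the start to 5.4 kb inside the gene.

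The claudin and Marveld genes described here carried little. Cldn7, a claudin, had 2 short regions in the flank before its start, with sums of 74, 97 and 111 in set 1 against 28, 38 and 38 in set 2. These did not overlap and differed by 2.71-fold (1.95 to 3.96), and the one with the larger ratio (chromosome 11, 69963751 to 69964050) had 38, 47 and 71 against 7, 25 and 22. Cldn3 had a single 100 bp region past its end (chromosome 5, 134987651 to 134987750), higher in set 2, with 16, 11 and 20 in set 2 against 4, 10 and 6 in set 1. These are the lowest sums of the 22 genes, and the ratio of 2.35 ran from 1.1 to 5.0 over pairs. Cldn4, 39.3 kb from Cldn3, held none, and its nearest region lay 17.5 kb away. Marveld3, a tight junction protein of the occludin family, had 6 regions, all higher in set 1, with sums of 446, 506 and 570 against 346, 348 and 404, 1.39-fold (1.1 to 1.65). Its largest (chromosome 8, 109964101 to 109965250) overlapped between sets at 221, 233 and 289 against 203, 211 and 224, while a 150 bp region inside the gene (109951351 to 109951500) had 29, 25 and 21 against 6, 11 and 15. Marveld2, which encodes tricellulin at the corners between cells, held none, and its nearest region was 10.1 kb away.

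Lama3 encodes the α3 chain of laminin-332, which anchors epithelia to their basement membrane, and is the longest of the genes at 249.6 kb (chromosome 18, 12333417 to 12583013). Its 71 regions were the most of any gene here, 49 higher in set 1 and 22 in set 2. The gene sums were 5452, 5675 and 5215 in set 1 against 4790, 4583 and 4871 in set 2, 1.15-fold (1.07 to 1.24), and the log2 ratio of 0.20 fell to 0.00 with the sets rescaled to equal sums. That small overall difference joined unlike stretches. Over the first 120 kb from the lower-coordinate end, 25 regions leaned to set 1 and 22 to set 2, with nearly equal sums of 4334, 4570 and 4305 against 4495, 4196 and 4385. Beyond it, from 156.8 to 241.4 kb, all 24 regions were higher in set 1 and 22 were separated, with sums of 1118, 1105 and 910 against 295, 387 and 486, 2.68-fold (1.87 to 3.79). The position of this split was chosen after the values were seen. The largest region (12415651 to 12417550), higher in set 2, had 312, 422 and 310 against 469, 545 and 458. The largest ratio, 9.0-fold at low values (12571401 to 12571550), came from 31, 31 and 28 against 6, 1 and 3. Regions of the upper stretch were shorter, with a median of 100 bp against 450 bp in the lower.

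St14 encodes matriptase, a membrane serine protease of epithelia (chromosome 9, 31088590 to 31131811). Its sums of 1449, 1460 and 1425 in set 1 against 1289, 1277 and 1211 in set 2 did not overlap but differed by 1.15-fold (1.11 to 1.21), and the log2 ratio of 0.20 fell to 0.00 after rescaling. The 25 kb limit used next was also chosen after the values were seen. In the lower 25 kb each set was higher in 3 regions, and the totals were 3121 for set 1 and 3100 for set 2. Above it all 6 were higher in set 1, by 1.79-fold (1.55 to 2.36). The largest region (31109301 to 31110800) overlapped, with 333, 278 and 315 against 267, 287 and 201. In the upper stretch a region (31125851 to 31126300) held 88, 85 and 60 against 28, 15 and 43.

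Prom2 encodes prominin 2, a protein of membrane protrusions in epithelia, and was the most densely covered gene, with 88.9% of its extended span in regions (chromosome 2, 127526953 to 127541417). Its 10 regions summed to 6863, 6517 and 6343 in set 1 against 5087, 5390 and 5194 in set 2, 1.26-fold (1.18 to 1.35) with no overlap. The longest region of any gene here, 7750 bp (127518501 to 127526250), lay next to its lower-coordinate end and held 2595, 2331 and 2302 against 1856, 1960 and 1827. That region ran from 8.5 to 0.7 kb below the gene, well past the 2 kb flank, and was counted whole. The largest ratio was 1.67-fold (127533801 to 127534650), with 213, 186 and 145 against 118, 96 and 112. Rab25, a GTPase of apical membrane recycling, held none, with the nearest region 81.4 kb away.

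**Figure D2:**
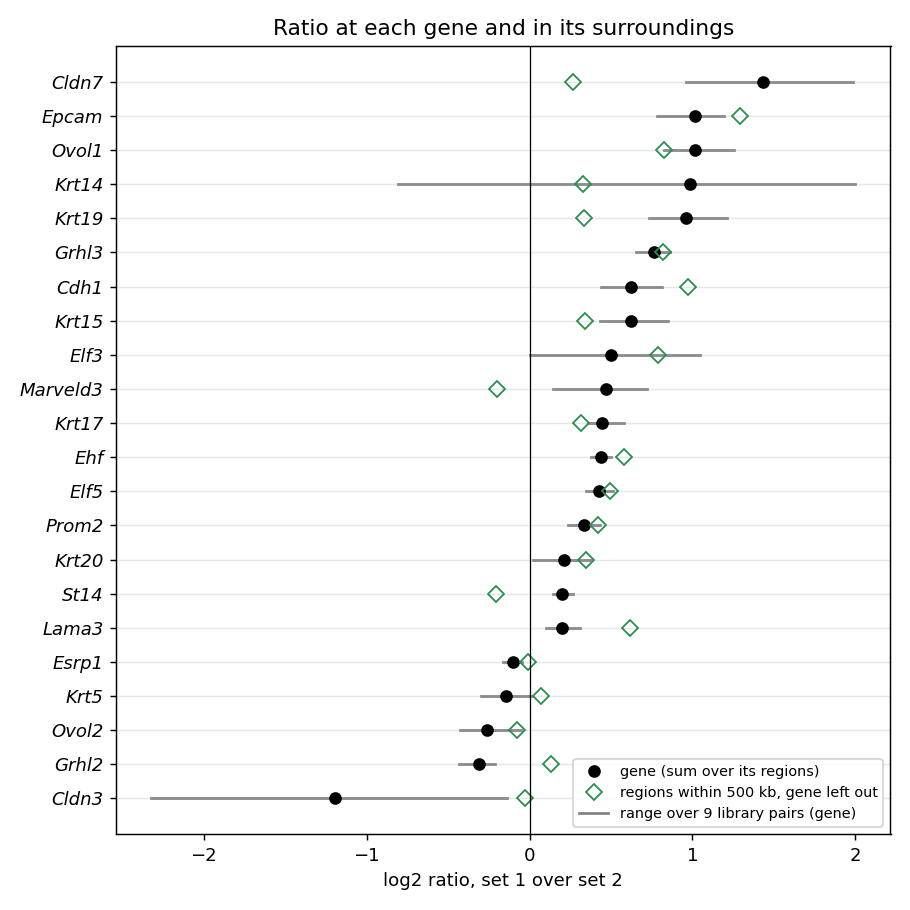
Log2 ratio of set 1 over set 2 of each gene's summed values (filled circles), its range over the 9 library pairs (grey lines) and the ratio of all listed regions within 500 kb outside the gene (open diamonds). Cldn7, Epcam and Ovol1 lie highest at 1.43, 1.02 and 1.02, Cldn3 lies lowest at -1.19, and Marveld3, St14, Krt5 and Grhl2 lie on the other side of 0 from their surroundings. Ratios are drawn without rescaling, and the surroundings of Krt5 and Grhl2 exceed 0 by less than the shift of 0.19 between the sets.

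Keratins, the intermediate filament proteins of epithelia, sit in a type I cluster on chromosome 11 and a type II cluster on chromosome 15, and the clusters differed. The type I cluster (99232761 to 100269951) held 458 regions over 39.5% of its length, and each of its 27 keratin genes had at least 1. No keratin gene lay from 310.5 to 778.4 kb into this cluster, but regions there enter its sums. Its library sums were 88208, 86663 and 84796 in set 1 against 70037, 73985 and 68945 in set 2, 1.22-fold (1.15 to 1.28 over pairs). The type II cluster (101348315 to 102032026) held 232 regions over 44.9% of its length. Its sums overlapped between the sets, at 83973, 84476 and 80361 against 77416, 82280 and 78449, 1.04-fold (0.977 to 1.09), and the log2 ratio of 0.06 became -0.13 after the sets were rescaled to equal sums. Rescaling also took the type I cluster from 0.29 to 0.09.

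In the type I cluster Krt15, Krt17 and Krt19 were higher in set 1 in every region. Krt15, a keratin of basal cells, had 6 regions with sums of 1345, 1184 and 1296 against 745, 878 and 862, 1.54-fold (1.35 to 1.81). Its largest (100130451 to 100132950) held 542, 482 and 516 against 336, 329 and 352, and the one with the largest ratio (100137151 to 100138300) 176, 200 and 234 against 96, 133 and 132. Krt19, a keratin of simple epithelia that lies 4.9 kb from Krt15, had 11 mostly short regions with sums of 615, 572 and 629 against 316, 271 and 344, 1.95-fold (1.66 to 2.32). A region in its flank (100139051 to 100140350) held 219, 259 and 310 against 120, 149 and 116, and a neighbouring one (100138601 to 100138900) 56, 70 and 48 against 37, 10 and 31. Krt17, induced in wounded and hair follicle epithelium, had 5 regions with sums of 1733, 1707 and 1710 against 1159, 1329 and 1294, 1.36-fold (1.28 to 1.5). Its largest (100259601 to 100262700) held 664, 686 and 678 against 471, 569 and 479, and the largest ratio was in its flank (100254051 to 100254750), 116, 122 and 142 against 78, 50 and 82. None of the sums of these 3 genes overlapped.

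Krt14, the partner of Krt5 in basal cells, had a single 250 bp region in its flank (100201351 to 100201600). The values overlapped, at 52, 50 and 16 in set 1 against 13, 28 and 18, and the pair range of 0.571 to 4.0 spans equality. Krt20, a keratin of intestinal epithelium, had 7 regions, of which 5 leaned to set 1 and 2 to set 2. Its sums of 1848, 1728 and 1751 lay above 1422, 1703 and 1469, by 1.16-fold (1.01 to 1.3), and the log2 ratio of 0.21 fell to 0.02 after rescaling. The largest region (99439601 to 99442100) overlapped at 617, 579 and 637 against 490, 614 and 552, and the largest ratio was towards set 2 (99433201 to 99433600), 86, 96 and 80 in set 2 against 62, 67 and 48 in set 1.

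In the type II cluster Krt5, the basal keratin, leaned towards set 2, with overlapping sums of 2070, 2175 and 2070 against 2148, 2543 and 2292. The direction rested on a 5750 bp region (101700451 to 101706200) from 6.6 to 0.9 kb below the gene. Most of this region lay beyond the 2 kb flank, but it was counted whole. It was higher in set 2, with 1394, 1788 and 1580 in set 2 against 1227, 1354 and 1278 in set 1. Of the 7 regions of Krt5 only 2 leaned to set 2, and with no flank the log2 ratio of -0.15 became 0.07. The region over the start (101712701 to 101712950) had 34, 39 and 41 in set 1 against 34, 17 and 18. Krt7, Krt8, Krt18 and Krt80 held no region. Krt8 and Krt18 pair in simple epithelia and lie 23.9 kb apart at one end of the cluster, and Krt80 and Krt7 lie at the other. Listed regions began 84.2 kb and stopped 624.3 kb into the 684 kb cluster, and the nearest regions to these genes were 62.4 kb from Krt80, 4.7 kb from Krt7, 24.1 kb from Krt8 and 24.2 kb from Krt18.

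**Figure D3:**
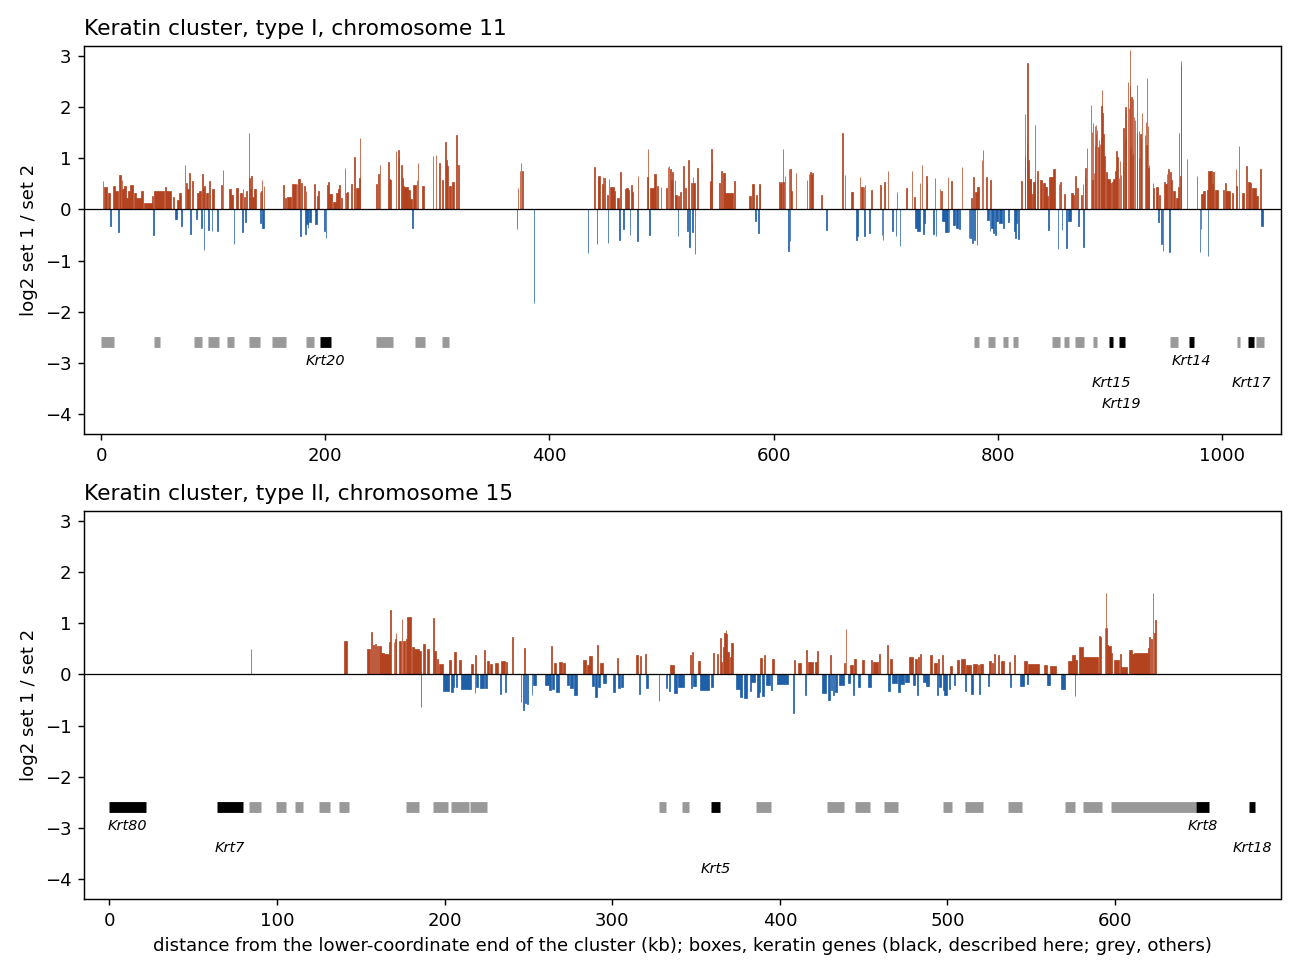
Log2 ratio of set 1 over set 2 (vertical axis) of each listed region across the keratin clusters, against distance from the lower-coordinate end of the cluster in kb, bars as wide as the regions, with boxes for keratin genes. Regions of the type I cluster lie mostly above 0 (358 of 458), those of the type II cluster are mixed (141 of 232 above 0), and its ends at Krt80 and Krt7 and at Krt8 and Krt18 are empty.

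The Grainyhead-like factors, which activate junction and barrier genes, took opposite directions. Grhl3, needed for the skin barrier and neural tube closure (chromosome 4, 135541887 to 135573632), had 19 regions, all higher in set 1, over 72.2% of its extended span. Library sums were 5141, 5399 and 5078 against 2969, 3018 and 3223, 1.7-fold (1.58 to 1.82). Its largest region (135557401 to 135562100) held 1004, 1117 and 1107 against 641, 673 and 704, and the region at its lower-coordinate end (135541451 to 135544800) 767, 665 and 574 against 312, 340 and 286. Grhl2, which maintains Cdh1 and claudin expression in epithelia (chromosome 15, 37232821 to 37363569), had 38 of 50 regions higher in set 2. Its sums were 8106, 8702 and 8065 in set 2 against 6670, 6948 and 6458 in set 1, 1.24-fold (1.16 to 1.35), again with no overlap. Along Grhl2 the regions were evenly divided up to 55 kb from the lower-coordinate end, 8 each way, with totals of 5394 for set 1 and 5229 for set 2. From 55 to 96 kb 19 of 23 were higher in set 2, and beyond 96 kb all 11 were, with sums of 1899, 2085 and 1870 in set 2 against 1338, 1408 and 1161 in set 1, 1.5-fold. These limits were also chosen after the values were seen. The largest region (37324101 to 37327650) overlapped, since set 2 held 847, 767 and 756 against 769, 702 and 595 in set 1, while the largest ratio was 2.3-fold (37331951 to 37333000), 178, 203 and 227 in set 2 against 92, 98 and 74 in set 1. Grhl1, a regulator of desmosomal genes, held no region, and the nearest lay 2.5 kb away with 46, 87 and 55 against 25, 12 and 12.

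The OVOL zinc finger factors, which repress mesenchymal genes in epithelia, were also opposite. Ovol1 (chromosome 19, 5549137 to 5560575) had 19 regions, all higher in set 1, with sums of 1865, 1960 and 1928 against 822, 1053 and 968, 2.02-fold (1.77 to 2.38). Its largest region (5558151 to 5559950) held 440, 324 and 418 against 202, 273 and 294, and the largest ratio, 3.2-fold, lay in the flank (5546901 to 5547150) at 42, 56 and 43 against 17, 17 and 10. Ovol2 (chromosome 2, 144305175 to 144332080) had 8 of 12 regions higher in set 2, with sums of 2896, 3145 and 3425 in set 2 against 2565, 2787 and 2544 in set 1, 1.2-fold (1.04 to 1.35). Its largest region, across the upper end of the gene (144332051 to 144335350), overlapped, since set 2 held 766, 816 and 978 against 682, 823 and 640 in set 1. The largest ratio was towards set 1 (144321551 to 144321900), 101, 66 and 68 against 60, 59 and 27.

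Of the ETS factors of epithelia, Elf5 and Ehf were separated and higher in set 1, while the values of Elf3 touched. Elf5, a factor of mammary and trophoblast lineages (chromosome 2, 103412098 to 103450989), and Ehf, an epithelial ETS factor 108.8 kb from it (103263431 to 103303275), had like ratios. Elf5 had sums of 7612, 7810 and 7380 against 5479, 5798 and 5667, 1.35-fold (1.27 to 1.43), with 21 of 23 regions higher in set 1. Ehf had 5491, 5380 and 5253 against 3880, 4049 and 3977, 1.35-fold (1.3 to 1.42), with 26 of 28. Neither pair of sets overlapped. The largest Elf5 region (103425401 to 103430100) held 1410, 1567 and 1368 against 1074, 1210 and 1114, and the one with the largest ratio (103424851 to 103425200) 75, 49 and 60 against 21, 31 and 17. In Ehf the largest region (103286001 to 103288800) overlapped at 733, 564 and 627 against 512, 501 and 571. Just past the upper end of Ehf a region (103303451 to 103303900) held 98, 110 and 65 against 46, 35 and 32. Elf3, an ETS factor of differentiating epithelia, had a single region in its flank (chromosome 1, 135252801 to 135253250) with values that touched, at 53, 95 and 67 against 53, 46 and 53.

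Trp63 encodes p63, the regulator of basal and stratified epithelium. No listed region lay within its 208.3 kb (chromosome 16, 25683763 to 25892088), although 172 lay within 500 kb of it, with a log2 ratio of 1.32 in sum. The nearest, 78.5 kb away, held 83, 74 and 85 in set 1 against 0, 0 and 32 in set 2. Klf5, a Krüppel-like factor of proliferating epithelium, held none either, and only 3 regions lay within 500 kb.

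The ESRP proteins direct epithelial splicing. Esrp1 (chromosome 4, 11331933 to 11386783) had 30 regions over 50.5% of its extended span, 19 higher in set 2 and 11 in set 1. With a limit chosen after the values were seen, they stood 7 to 7 up to 30 kb from its lower-coordinate end, and beyond it 12 of 16 were higher in set 2. The sums of 6554, 6319 and 6333 in set 2 lay above 6112, 5929 and 5863 in set 1, but by only 1.07-fold (1.03 to 1.12). With the sets rescaled to equal sums the log2 ratio of -0.10 became -0.30. The largest region (11358951 to 11361600) was separated, as set 2 held 629, 612 and 536 and set 1 483, 436 and 478, while the largest ratio was in a 150 bp region (11376551 to 11376700), 25, 34 and 15 in set 2 against 11, 9 and 10 in set 1. Esrp2 held none, with the nearest region 134.7 kb away.

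**Figure D4:**
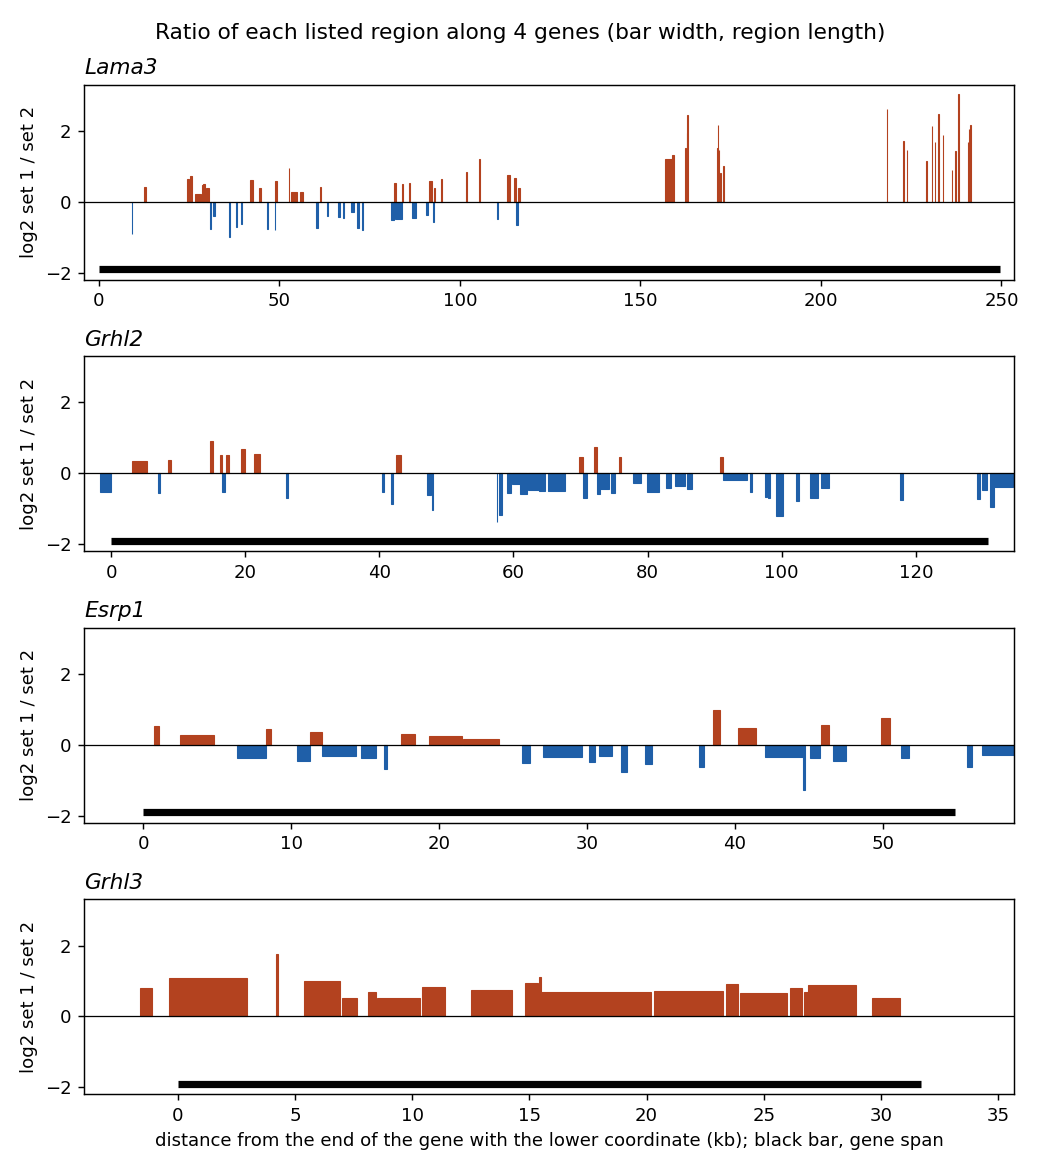
Log2 ratio of set 1 over set 2 (vertical axis) of each listed region along Lama3, Grhl2, Esrp1 and Grhl3, against distance from the lower-coordinate end of the gene in kb, bars as wide as the regions, with a black bar for the gene span. Lama3 is mixed up to 120 kb and above 0 beyond, Grhl2 is mixed up to 55 kb and below 0 in all 11 regions beyond 96 kb, Esrp1 is mixed throughout, and all 19 regions of Grhl3 lie above 0.

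The direction of most genes matched that of the chromosome around them. Listed regions within 500 kb, with the gene's own left out, had the same direction in sum at 18 of the 22 genes (81.8%, against 80.9% of genes with regions), which is the background share. Krt14, Krt15, Krt17 and Krt19 lie within 500 kb of each other, as do Elf5 and Ehf. Their regions enter each other's surroundings, and they are not independent units here or in the direction counts above. At Epcam the surroundings had a log2 ratio of 1.29 and the gene 1.02, and at Grhl3 they had 0.82 and 0.76. Krt19 stood at 0.96 against 0.33 around it, and Cldn7 at 1.43 against 0.27. The exceptions in direction were Marveld3 (0.47 in the gene and -0.20 around it), St14 (0.20 and -0.21), Grhl2 (-0.31 and 0.13) and Krt5 (-0.15 and 0.07). No rescaling was applied to these ratios. Around Grhl2 and Krt5 they lay above 0 by less than the shift of 0.19 between the sets. St14 itself fell to 0.00 after rescaling, while Marveld3 kept 0.28.

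Other genes of the epithelial programme were taken as 5 lists with 74 genes outside the 33. Of these, 45 carried a region (60.8%, against 31.2%). Among the 74 genes, 42 held one higher in set 1 (against 26.5% of protein-coding genes) and 21 one higher in set 2 (against 18.0%). Summed per gene, 33 of 45 were higher in set 1 (73.3%, against 69.3%). All 17 other keratins carried regions, 10 higher in set 1 in sum and 7 in set 2, a split that rescaling turned to 7 and 10. By summed value the first of these towards set 1 were Krt78 (1.31-fold) and Krt77 (1.09-fold, which rescaling turned towards set 2), and towards set 2 Krt75 (1.06-fold, overlapping) and Krt71 (1.1-fold). Of 12 desmosome and envelope genes 6 carried regions, led by Pkp1, a plakophilin, with 5343, 5230 and 5067 in set 1 against 1810, 2031 and 1991 (2.68-fold, 2.49 to 2.95), and Dsp, desmoplakin, at 1.36-fold. Set 2 was higher at Perp, whose sums overlapped, and at Dsg2, a desmoglein, by 1.89-fold. Tight junction and polarity genes carried regions in 8 of 17 cases, all higher in set 1 in sum, led by Prkcz, an atypical protein kinase C, at 1.49-fold and Tjp1, which encodes ZO-1, at 1.5-fold. Of 8 hemidesmosome genes only Lamb3, the laminin β3 chain, and Itgb4 carried any, at 1.64-fold and 1.76-fold in set 1. Of 20 further epithelial genes 12 carried regions. Spint2, a serine protease inhibitor, stood at 1.64-fold towards set 1. Tmprss2, a serine protease, had all 56 of its regions higher in set 2, with sums of 10856, 11718 and 11139 in set 2 against 5563, 5691 and 5363 in set 1 (2.03-fold), and Tfap2c stood at 1.43-fold towards set 2. The letters CAGGTG were in a window of 23 of the 41 genes of these lists with a listed start (56.1%).

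The miR-200 microRNAs, which silence Zeb1 and Zeb2 in epithelia, lie in separate clusters, and Mir200c and Mir141 carried no region, nor did Mir205 and its host Mir205hg. A single region reached the cluster of the other family members on chromosome 4 (156055501 to 156060950). It covered the mature miR-200b sequence, and its extent stopped short of miR-200a and miR-429, which lay within 2 kb of it. The libraries gave 1224, 1412 and 1169 in set 1, against 811, 893 and 1045 in set 2, 1.38-fold (1.12 to 1.74) with no overlap. The mature sequences from RefSeq are shown with the seed, bases 2 to 8, in capitals. The seed of miR-200b and miR-429 is the same, and that of miR-200a differs from it.
mmu-miR-200b-3p: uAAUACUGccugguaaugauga
mmu-miR-429-3p: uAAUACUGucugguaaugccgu
mmu-miR-200a-3p: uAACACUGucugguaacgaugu

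Of 10 repressors and inducers of the mesenchymal state, only Snai3 carried a region (against 31.2% of protein-coding genes), with overlapping values of 34, 41 and 27 in set 2 against 31, 24 and 10 in set 1. Snai1, Snai2, Zeb1, Zeb2, Twist1 and Twist2 carried none. Of 20 fibroblast markers 2 carried a region, Col6a2 and Fap (against the same 31.2%), with list sums of 93 to 119 per library in set 1 and 46 to 78 in set 2, and 18 had no listed region, among them Col1a1, Col1a2, Vim, Thy1 and Pdgfra. Markers of other lineages carried regions in 4 of 5 immune, 3 of 4 endothelial and 3 of 4 neuronal genes, also to be read against 31.2%. Of 11 fibroblast markers with a listed start, 1 held CAGGTG in its window (9.09%, against 22.1%).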

How the data were processed

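The 6 immunoprecipitated libraries enter 1 table that the authors deposited for the whole series, with no header. CASAVA, Trimmomatic 0.36 and BWA 0.7.17 with GRCm38 were used, per the submitters' processing notes. Not given in the sources used here are the region caller, the normalization and any role of the inputs. Each deposited region packs 3 whole-number signal values per set and the authors' −log10 p-value, which was used only as an alternative filter. The values were not treated as raw counts, and no test was run because the sets are not tied to constructs.

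Values were summed over the regions of a gene, and a log2 ratio was taken of the sums with a pseudocount of 1, using Python 3.11.15, numpy 2.4.6 and pandas 2.3.3. Spans and promoter windows came from RefSeq (GRCm38.p6), and all 33 symbols matched. Region assignment was checked by a direct search for 300 genes, 0 of which differed. The log2 ratio of sums was tested separately, on values simulated as Poisson counts with known ratios. The deposited values need not follow that model. Named regions were, per gene, the one with the largest summed value and the one with the largest ratio among those with a summed value of at least 100. From each further list the 2 genes per direction with the largest sums were named, except 1 gene that is not reported here. The genes and lists were chosen with earlier results of these data known. Alternatives covered flanks, rescaling, filters, each library left out, the pseudocount and the summary used.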

Additional observations from a re-analysis of the deposited data

How the results depend on the processing

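Of 113 recomputed counts and cluster ratios, 104 stayed within 1.5 times of the value given or within the spread between libraries. That spread is the SD of log2 sums within a set, pooled over both sets, and was used only for this comparison. With no flank, 3 genes in place of 5 were higher in set 2 in sum, since Krt5 turned to a log2 ratio of 0.0669 and Cldn3 lost its only region, as did Krt14, Cldn7 and Elf3. Krt5 also turned to 0.41 as the median over its regions. Rescaling the sets to equal sums lowered the type I keratin cluster from 0.286 to 0.0919 and turned the type II cluster to -0.13. With separated regions only, the type I cluster stood at 0.38. Regions of at least 500 bp left 85 separated regions higher in set 1. With a ratio of at least 2-fold required of a region, 11 genes carried one higher in set 1 and 3 one higher in set 2. No share over all protein-coding genes is available for these counts. Of all listed regions, 22.3% reached that ratio in set 1 and 12.9% in set 2. A region within 1 kb of the start was found for 8 genes (against 16.8% of protein-coding genes with a listed start). Within 2 kb it was found for 9, with no share over all genes available. Leaving out each library in turn left 17 genes higher in set 1 and 5 in set 2 in all 6 cases, with 179 to 189 separated regions for set 1 and 63 to 74 for set 2. Of the log2 ratios of single genes, 2 turned, both of Krt5, and 54 of 339 moved by more than the spread between libraries. Rescaling to equal sums moved the ratio of every gene beyond that spread except Krt14, Cldn3, Cldn7 and Elf3. Elf5 fell from 0.43 to 0.23, Ehf from 0.44 to 0.24 and Prom2 from 0.33 to 0.14. Towards set 2, Grhl2 went from -0.31 to -0.50, Ovol2 from -0.26 to -0.46 and Krt5 from -0.15 to -0.34. The alternative restricted to regions at keratin genes was added after the data were seen, and gave 0.25 for the type I cluster and 0.08 for the type II cluster. No paired analysis was possible because the table does not say which value belongs to which replicate. Depth is unknown, so no counting error can be given for the short regions with low values.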

Other observations

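Within the type I keratin cluster, hair keratins leaned both ways. Krt31, Krt33b, Krt34 and Krt35 were lower in set 1 in sum, with log2 ratios of -0.44, -0.27, -0.26 and -0.19. Krt32, Krt36 and Krt33a, in the same stretch, were higher, at 0.48, 0.29 and 0.22. Krt13, a keratin of internal stratified epithelia in the same stretch, stood at 1.10, with 428, 443 and 426 in set 1 against 217, 207 and 182 in set 2 over 12 regions that were all higher in set 1. Krt12, of the cornea, was the only other keratin of that cluster on the side of set 2, at -0.04. These genes were named after their values were seen. In the type II cluster 10 keratin genes were higher in set 1 in sum and 9 in set 2, which rescaling the sets to equal sums changed to 5 and 14, and the highest were Krt83 at 0.66 and Krt84 at 0.60.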
